A study of Homo sapiens with 6 samples.

Results

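Ribosomal protein pseudogenes are copies of the genes for the proteins of the ribosome. Their rows were taken from the table of read counts by name, as a ribosomal protein symbol followed by P and a number, and the parent of each is the gene whose symbol stands before that P. The rule found 103 of the 16199 rows, 68 named for proteins of the large subunit and 35 for proteins of the small subunit. They belong to 46 parent names, of which 45 have a row of their own. RPS18 has no row, so RPS18P9 and RPS18P12 could not be set against a parent, and 101 pseudogenes could. RPS3A has 7 members, RPL7A has 6, and RPL23A, RPL5 and RPSA have 5 each.

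The counts come from iCLIP with an antibody against Ago2, a method in which ultraviolet light links a protein to the RNA it touches before the protein is pulled down. Ago2 is the Argonaute protein that carries microRNAs to their targets, and Dicer is the enzyme that cuts microRNAs from their precursors. All cells were of H1, a widely used human embryonic stem cell line, grown for 10 days without doxycycline, with 2 dishes of 15 cm per library exposed 2 times to 150 mJ/cm2 at 254 nm. The 3 groups, of 2 libraries each, were wild-type cells, cells hemizygous for the Dicer substitution S1344L and cells homozygous for it, engineered with CRISPR-Cas9. The protocol names the genotypes wildtype, pm/fs and pm/pm. Nothing in the labels says that replicates were separate clones or cultures, so a p-value measures the spread between libraries, which may be technical.

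Most ribosomal protein pseudogenes arose when a spliced mRNA of the parent was copied back into the genome, which leaves a copy without introns at an unrelated place. Ribosomal protein mRNAs are among the most abundant in dividing cells, and the human genome holds many such copies of them. A copy can stay close in sequence to its parent mRNA, so a read from the parent may align to the copy and the reverse. Whether such reads were dropped, shared or placed once, and which aligner, counter and strand setting were used, is not given in the sources used here. A count on a pseudogene row is therefore a count assigned to that row, and its origin from the copy or from the parent cannot be told apart.

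The parents are typical of genes whose mRNAs begin with a run of pyrimidines, the terminal oligopyrimidine tract through which growth signals set their translation. To show such starts, the sequence around the annotated start is printed for parents whose pseudogenes took large shares of the counts. RPS6, whose pseudogenes varied most between replicates, is added. Bases before the annotated start are not part of the annotated mRNA, and in RPS7 the tract begins 3 bases before it. The sequences are from RefSeq on GRCh38.p14, hold 20 bases before and 20 from the start onward, and carry the tract in capitals.
RPL7A, chr9:133348198-133348237, plus strand: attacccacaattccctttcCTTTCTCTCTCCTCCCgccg
RPS10, chr6:34426050-34426089, minus strand: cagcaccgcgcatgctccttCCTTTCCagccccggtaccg
RPL26, chr17:8383174-8383213, minus strand: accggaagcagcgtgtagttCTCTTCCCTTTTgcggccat
RPS28, chr19:8321476-8321515, plus strand: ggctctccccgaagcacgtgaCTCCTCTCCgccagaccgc
RPS7, chr2:3575240-3575279, plus strand: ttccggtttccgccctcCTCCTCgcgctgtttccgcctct
RPS6, chr9:19380217-19380256, minus strand: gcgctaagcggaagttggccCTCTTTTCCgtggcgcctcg
The tract was searched on the sense strand as a C followed by at least 4 bases that are each C or T, beginning within 5 bases of the annotated start. It was present in 26 of the 35 parents in the RefSeq table (74.3%) and in 21.1% of all 27303 entries. RPL6 is a parent without one by this search, chr12:112411423-112411462 on the minus strand.
RPL6: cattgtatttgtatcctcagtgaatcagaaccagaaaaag
A match, or the lack of one as in RPL6, is a description of letters at a single annotated start per gene. Other starts of the same gene were not searched. Sequences of the pseudogenes themselves were not used here.

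By RefSeq, 90 of the members are pseudogenes, 12 are transcribed pseudogenes, and RPSAP58 is now listed as the protein-coding gene RPSA2. Of all rows, 683 are RefSeq pseudogenes. The span was at most 2000 bases in 98 members, from 344 to 1436 with a median of 673.5. The other 5, RPSAP58, RPL23AP82, RPL23AP53, RPL32P3 and RPL23AP7, span more. Members lie on 22 chromosomes, 50 of them inside the span of another gene and 53 in none. For 37 that gene is protein-coding, so reads from its introns can also fall on the copy.

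Libraries held 38.2 M to 52.9 M counts. Values below are CPM, counts scaled to a common library total with TMM factors. The 8 stem cell markers all had rows, with a sum of 8017 to 9525 CPM per library. Of the other marker lists, 3 of 6 fibroblast or stromal genes had rows (282 to 489 CPM), 2 of 4 neural genes (19.6 to 64.5 CPM), 1 of 4 mesendoderm genes (1.23 to 3.07 CPM) and 0 of 3 blood genes. The neural sum was highest in the hemizygous libraries (46.6 and 64.5 CPM), and its part in the results below was not tested. In such bulk libraries of RNA recovered with Ago2, fewer cells of a type, less RNA per cell and less of that RNA bound by Ago2 cannot be told apart.

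Most members had low counts. The median member had 5.36 CPM against 19.1 CPM for the median row, and 24 members lay above that row. There were 3 members over 100 CPM, 37 over 10 CPM, 45 from 1 to 10 CPM and 21 under 1 CPM. No member was at 0 in any library, and the lowest member total over the 6 libraries was 170 counts, in a table whose lowest row total was 132. All 103 passed the filter on low counts. The lowest mean was that of RPL12P25, at 0.631 CPM, and the highest that of RPS2P5, at 329 CPM.

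RPS2P5 alone held 17.0% of all counts on members, and the 12 most abundant held 59.0%. It lies on chromosome 12 (chr12:118246061-118247002) inside TAOK3, a kinase gene that had 27.1 to 29.3 CPM over its whole row. RPS2P5 had 333 and 342 CPM in wild-type, 304 and 319 CPM in hemizygous, and 332 and 345 CPM in homozygous cells. The hemizygous pair lay below both others, and the fold changes were -0.12 on the log2 scale (SE 0.12) against wild-type and 0.00 (SE 0.12) for homozygous against wild-type. Per kilobase of RefSeq span it reached 349.6 CPM, followed by RPS7P1 with 157, RPS28P7 with 142, RPL7P9 with 125, RPL24P4 with 124 and RPL13AP5 with 102 CPM per kilobase.

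**Figure D1:**
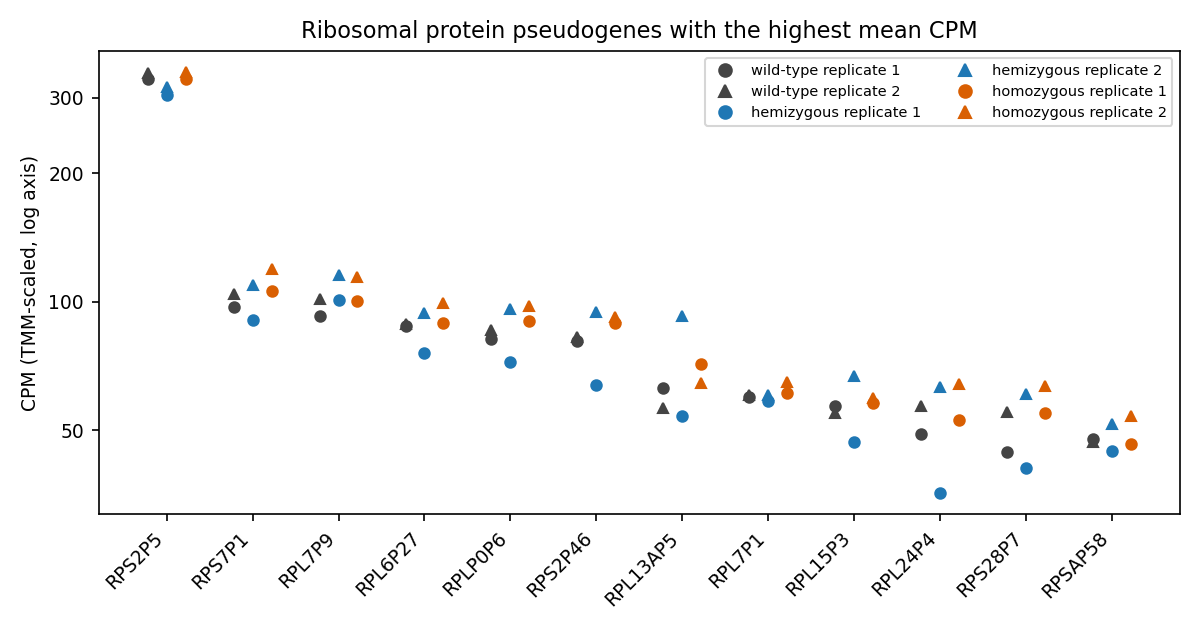
CPM (log axis) of the 12 pseudogenes with the highest mean, with 1 point per library, circles for replicate 1 and triangles for replicate 2, coloured by genotype. RPS2P5 stands apart at 304 to 345 CPM, and hemizygous replicate 1 is the lowest point of most of the others.

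RPS7P1, named for a small-subunit protein, had 97.0 and 104 CPM in wild-type, 90.4 and 109 CPM in hemizygous, and 106 and 119 CPM in homozygous cells. The homozygous pair lay above the wild-type pair, and the hemizygous pair spread across both. RPL7P9, named for a large-subunit protein, had 92.7 and 102 CPM in wild-type, 101 and 115 CPM in hemizygous, and 100.1 and 114 CPM in homozygous cells, so all 3 pairs overlapped. RPL13AP5, a transcribed pseudogene on chromosome 10, had 62.8 and 56.3 CPM in wild-type, 53.9 and 92.3 CPM in hemizygous, and 71.4 and 64.5 CPM in homozygous cells. Its hemizygous libraries were further apart than any 2 genotype means. RPL24P4, inside the readthrough gene CNPY3-GNMT, had 49.1 and 57.0 CPM in wild-type, 35.6 and 63.0 CPM in hemizygous, and 52.7 and 64.0 CPM in homozygous cells, with hemizygous replicate 1 the lowest.

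The parents had 1.80 to 2492 CPM, with a median of 783 CPM. The counts of 51 of the 101 members with a parent row were under 1% of the parent's counts, and those of 13 were over 10%. These shares compare counts, not levels per length. Across members, log2 CPM of the member and of the parent correlated weakly (r = 0.15, rho = 0.20, n = 101 members that share the 6 libraries).

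In 4 members the pseudogene row held more counts than the parent row, RPL7AP6, RPL7AP30 and RPL7AP62 against RPL7A and RPS10P3 against RPS10. RPL7A, a large-subunit protein gene, had 2.41 and 1.36 CPM in wild-type, 2.19 and 1.90 CPM in hemizygous, and 1.50 and 1.45 CPM in homozygous cells. RPL7AP6, inside SMOC1, had 41.1 and 45.3 CPM, 33.6 and 45.5 CPM, and 40.8 and 46.1 CPM in the same order. The RPL7A row is thus low in all 6 libraries, and RPL7AP6 is an order of magnitude higher in each. SMOC1 itself had 0.939 to 2.11 CPM. RPL7A is the parent with the lowest row, followed by RPS10 with 3.95 and RPL17 with 16.3 CPM. RPS10 and RPL17 are overlapped in RefSeq by the readthrough genes RPS10-NUDT3 and RPL17-C18orf32, which have no row. The RPL7A span holds 4 small nucleolar RNA genes and no other coding gene, and 22 of the 45 parents hold such RNAs. The part of these overlaps in the low rows was not tested.

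RPL7A pseudogenes took 97.4% of all counts of the family (parent and pseudogenes together), with 96.3 to 98.2% over the libraries. In hemizygous replicate 1, the lowest, the 95% Wilson interval was 95.4 to 97.0%. Such intervals cover counting error only, as reads from PCR are not independent molecules. The share was 71.3% for RPS10 (62.6 to 75.3%), 32.4% for RPL26, 17.1% for RPS2, 15.9% for RPS28, 15.5% for RPS7 and 14.3% for RPL7. Of the 45 families, 7 thus had over 10% of their counts on pseudogenes and 15 over 5%. In 12 the share was under 1%, and the median family had 4.15%.

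**Figure D2:**
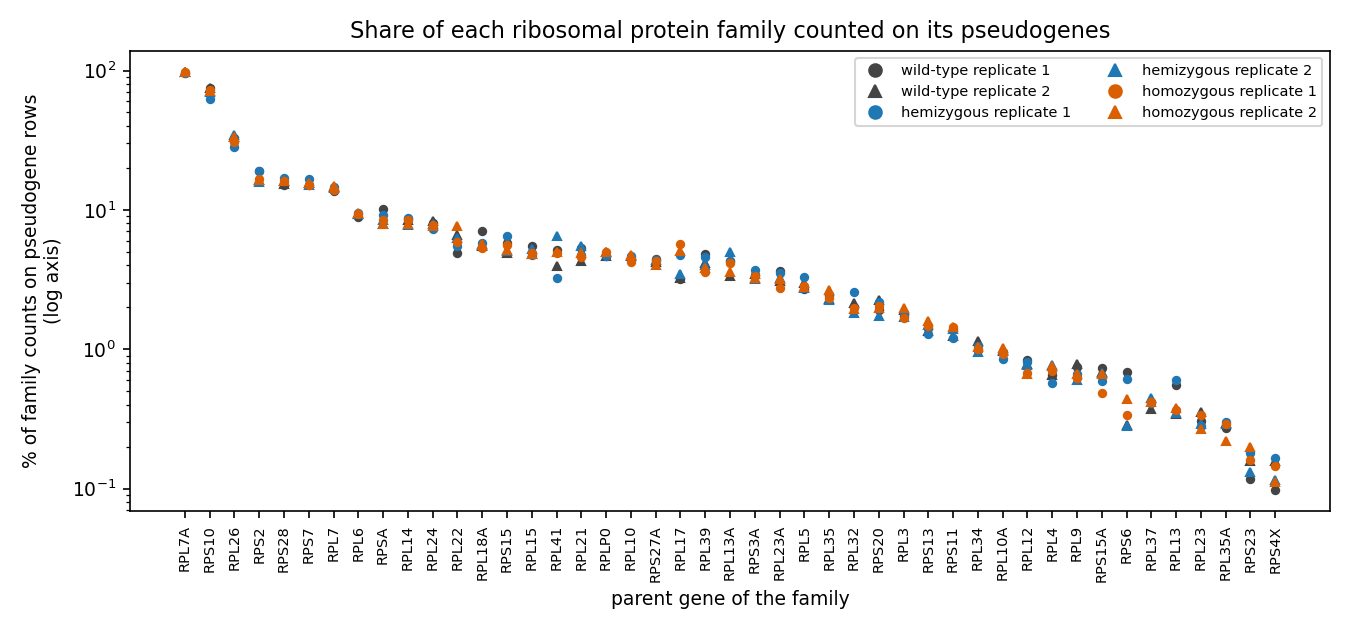
Share of the counts of each of the 45 families (parent plus pseudogenes) that fell on pseudogene rows, in percent on a log axis, with 1 point per library. RPL7A (97.4%) and RPS10 (71.3%) stand at the top, RPS4X (0.129%) at the bottom, and libraries of a family mostly lie close together.

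Leaving aside the 3 parents under 20 CPM, 92 members remained, with a median of 0.739% of the parent's counts. Of these, 5 were over 10%, 36 from 1 to 10% and 51 under 1%. RPL26P19 was the highest, at 45.6% of the RPL26 count (37.8 to 49.9% over the libraries). RPS2P5 amounted to 19.0 and 15.8% of the RPS2 count in wild-type, 19.5 and 14.6% in hemizygous, and 15.6 and 15.3% in homozygous cells. RPS2 itself had 1756 and 2161 CPM, 1560 and 2185 CPM, and 2121 and 2252 CPM in the same order. The percentage was highest in the 2 libraries with the least RPS2. Over the 6 libraries, the SD was 0.07 for the log2 CPM of RPS2P5 and 0.17 for its log2 ratio to RPS2, so the ratio varied more than the level. RPS28P7, at 17.3 to 19.9% of RPS28, and RPS7P1, at 15.9 to 18.0% of RPS7, kept a narrower range.

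The ratio to the parent varied less over the 6 libraries than the member's own level in 60 of 101 members. The median SD was 0.23 on the log2 scale for the level and 0.20 for the ratio. Among the 24 members of at least 20 CPM, the ratio varied less in 16, with median SDs of 0.16 for the level and 0.09 for the ratio. Among 387 other pseudogenes named for a parent with a row, the ratio varied less in 197, and in 18 of 24 at 20 CPM or more, with median SDs of 0.18 and 0.15 in that subset. These are descriptions, as all members share the libraries.

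The comparison of hemizygous with wild-type cells asks how the RNA recovered with Ago2 differs between these genotypes. Hemizygous cells, pm/fs in the protocol, carry the Dicer substitution and, by that name, also differ from wild-type in the other allele. The parts of the substitution and of the other allele cannot be told apart here. The members lay around 0 in this comparison. The median log2 fold change was -0.02 against -0.00 for all rows, and 47 of 103 members (45.6%) were above 0, where 49.1% of all rows were. edgeR's quasi-likelihood test called 0 members at an adjusted p under 0.05 (0.0% of all rows), and 0 members had an unadjusted p under 0.05 (0.87% of all rows). limma-voom called 0 members (0.0% of all rows) and DESeq2 called 0 (0.0432% of all rows). The 2 libraries of each genotype did not overlap for 5 members with higher values in hemizygous cells (8.13% of all rows were higher in this way) and for 8 with lower values (9.21% of all rows), so both shares of members, 4.85% and 7.77%, were near or under the background. The sign of the median rested on single libraries: it was 0.12 without hemizygous replicate 1, -0.16 without hemizygous replicate 2 and 0.02 without wild-type replicate 2.

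Among the members without overlap, the 3 with the smallest p had under 1 CPM. RPL32P18, inside NUDCD3, had 0.733 and 0.486 CPM in wild-type and 0.965 and 0.968 CPM in hemizygous cells (log2 fold change 0.65, SE 0.34). RPS18P12 had 0.906 and 1.07 CPM in wild-type and 0.756 and 0.455 CPM in hemizygous cells (log2 fold change -0.72, SE 0.41). RPS3AP54, also under 1 CPM, had a log2 fold change of 0.58 (SE 0.33). RPS10P3 had 9.43 and 9.47 CPM in wild-type, 5.27 and 8.94 CPM in hemizygous, and 9.08 and 12.4 CPM in homozygous cells. Its hemizygous pair lay below the others but was itself wide. RPS10 had fold changes of 0.22 in this comparison and 0.42 for homozygous against wild-type.

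The comparison of homozygous with wild-type cells concerns cells in which both alleles carry the substitution, pm/pm in the protocol. Here the members and their parents had mostly positive fold changes. The median over members was 0.13 and 81 of 103 were above 0 (78.6%), where 49.3% of all rows were. The parents had a median of 0.16 with 42 of 45 above 0, and the 387 other pseudogenes a median of -0.02 with 180 above 0. edgeR called 0 members at an adjusted p under 0.05 (0.0% of all rows), limma-voom called 0 (0.0% of all rows) and DESeq2 called 0 (0.0617% of all rows). An unadjusted p under 0.05 was found for 2 members by edgeR, both higher (2.69% of all rows), and for 0 members by DESeq2 (441 of all 16199 rows). The libraries did not overlap for 27 members with higher values in homozygous cells (26.2%, against 14.2% of all rows) and for 4 with lower values (3.88%, against 13.6%). The median was 0.021, with 60 members above 0, when homozygous replicate 2 was left out.

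**Figure D3:**
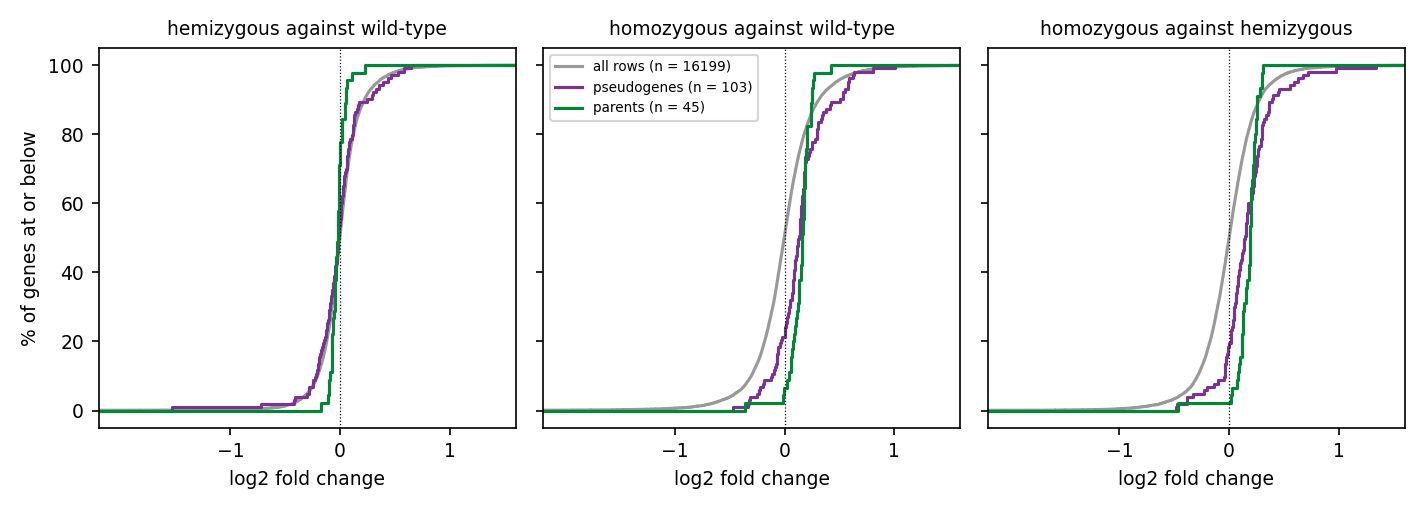
Cumulative share of genes (vertical axis, percent) at or below each log2 fold change (horizontal axis) in the 3 comparisons, for all 16199 rows, the 103 pseudogenes and the 45 parents. The pseudogene and parent curves lie to the right of all rows in both comparisons of homozygous cells, with medians of 0.13 and 0.16 against wild-type, and cross it near 0 for hemizygous against wild-type.

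The 2 members with p under 0.05 were among the lowest. RPL32P32, inside USP32, had 0.617 and 0.895 CPM in wild-type, 0.574 and 0.949 CPM in hemizygous, and 1.45 and 1.58 CPM in homozygous cells. The homozygous pair lay above all other libraries, with a log2 fold change of 1.01 (SE 0.37, edgeR adjusted p = 1.00). The parent RPL32 had 0.18 and USP32 had 0.08 in the same comparison. RPL17P50 had 0.578 and 0.537 CPM in wild-type, 0.678 and 0.588 CPM in hemizygous, and 0.991 and 0.960 CPM in homozygous cells (log2 fold change 0.80, SE 0.31, edgeR adjusted p = 1.00), with RPL17 at 0.02. RPS11P5, inside GOLGA3, was the best counted of the 5 with the smallest p, with 11.3 and 12.2 CPM in wild-type, 9.31 and 14.9 CPM in hemizygous, and 14.5 and 16.8 CPM in homozygous cells (log2 fold change 0.41, SE 0.25).

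The 4 members lower in homozygous cells without overlap were RPL23AP82, RPL23AP53, RPL23AP7 and RPS6P25. The first 3 are transcribed pseudogenes of RPL23A, a large-subunit protein gene, and are also 3 of the 5 members with a span over 2000 bases. RPL23AP82 had 7.35 and 6.29 CPM in wild-type, 6.15 and 7.57 CPM in hemizygous, and 4.91 and 6.03 CPM in homozygous cells (log2 fold change -0.32, SE 0.23). RPL23AP7 had 2.58 and 2.20 CPM, 1.72 and 2.16 CPM, and 1.67 and 2.12 CPM in that order (-0.34, SE 0.28), and RPL23AP53 had a fold change of -0.47 (SE 0.39) at under 1 CPM. The parent RPL23A had 0.11, and the short RPL23A copies RPL23AP42 and RPL23AP65 had 0.08 and 0.42. None of these passed the test. These 3 long copies may share reads with one another, which was not tested. Over all 12 transcribed pseudogenes, 7 were above 0 with a median of 0.06, and over the 90 without a RefSeq transcript 73 were above 0 with a median of 0.14.

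Homozygous against hemizygous shares its libraries with the other comparisons, so its values stand beside theirs and are no separate support. The median over members was 0.14 with 83 of 103 above 0 (80.6%, against 49.9% of all rows), and over parents 0.19 with 44 of 45 above 0. edgeR called 0 members at an adjusted p under 0.05 (0.0% of all rows), and 1 member had an unadjusted p under 0.05 (0.765% of all rows), RPL32P32 with 0.98 (SE 0.37). limma-voom called 0 members (0.0% of all rows) and DESeq2 called 0 (0.0617% of all rows). By DESeq2, 0 members had an unadjusted p under 0.05 (147 of all 16199 rows). The libraries did not overlap for 21 members with higher values in homozygous cells (20.4%, against 11.0% of all rows) and for 2 with lower values (1.94%, against 10.4%), RPL23AP82 and RPL32P18. The median was 0.0087, with 54 members above 0, without hemizygous replicate 1, and 0.31, with 89 above 0, without hemizygous replicate 2.

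Summed over members, the libraries held 1870 and 1922 CPM in wild-type, 1655 and 2064 CPM in hemizygous, and 1941 and 2118 CPM in homozygous cells. The means were 1896 ± 36.9 CPM, 1859 ± 289 CPM and 2030 ± 125 CPM (SD, n = 2), and the hemizygous pair was wider than any difference between means. With 2 against 2 libraries, the exact two-sided permutation test cannot go below p = 0.333, which it gave for homozygous against wild-type. The parents moved in the same order, with 34782 and 38098 CPM, 30806 and 40821 CPM, and 38511 and 42385 CPM. Member counts were 5.37 and 5.04% of parent counts in wild-type, 5.36 and 5.05% in hemizygous, and 5.03 and 4.99% in homozygous cells. The log2 ratio of the sums differed by -0.05 between homozygous and wild-type cells (exact permutation p = 0.333, the smallest possible) and by 0.0011 between hemizygous and wild-type cells (exact permutation p = 1.0).

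**Figure D4:**
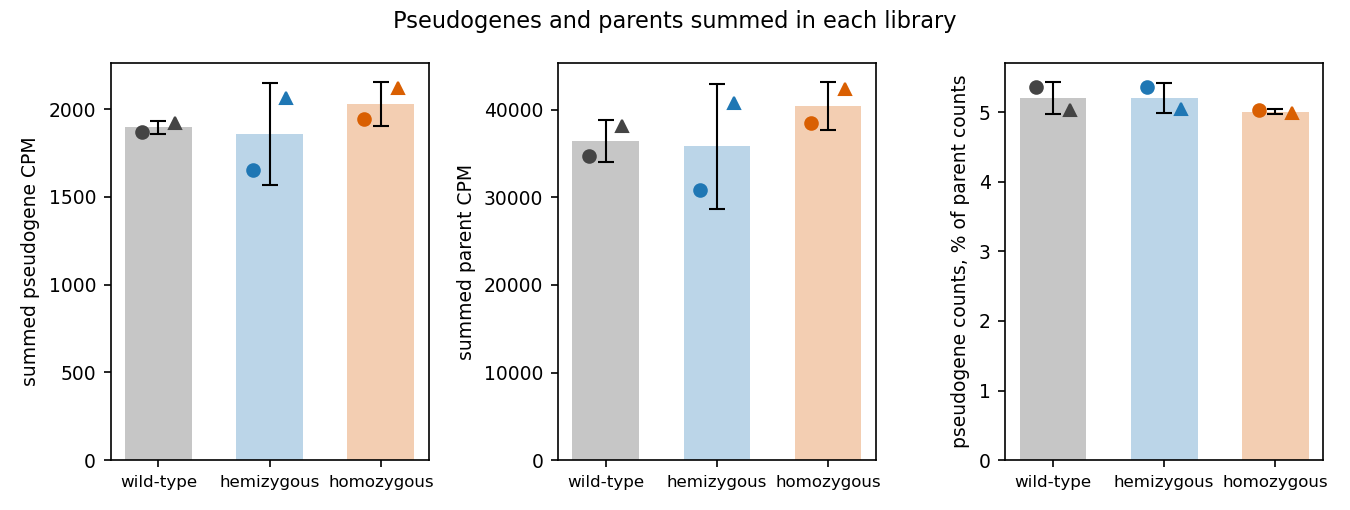
Summed CPM of the pseudogenes, summed CPM of the parents, and pseudogene counts as a percentage of parent counts, by genotype, with bars at the mean, error bars of 1 SD over 2 libraries and 1 point per library (circle replicate 1, triangle replicate 2). Both sums are lowest in hemizygous replicate 1 and highest in homozygous replicate 2, while the percentage stays between 4.99 and 5.37%.

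Single libraries stood out in level. Hemizygous replicate 1 was the lowest of the 6 libraries for 53 members, as it was for 25.0% of all rows, and homozygous replicate 2 the highest for 53 members, as it was for 20.5% of all rows. Replicate 1 was lower than replicate 2 in the median member of every genotype, by a log2 ratio of -0.08 (wild-type), -0.27 (hemizygous) and -0.17 (homozygous), and in the median parent by -0.12, -0.37 and -0.15. Within replicate number 1, the median member had -0.13 for hemizygous against wild-type, 0.08 for homozygous against wild-type and 0.23 for homozygous against hemizygous. Within number 2 the same medians were 0.08, 0.17 and 0.09. The median homozygous against wild-type and homozygous against hemizygous values were thus above 0 within each number, and hemizygous against wild-type changed sign.

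Members and their parents had the same sign of fold change in 58 of 101 cases for hemizygous against wild-type, 74 for homozygous against wild-type and 75 for homozygous against hemizygous. For homozygous against wild-type, 78.6% of members and 93.3% of parents were above 0, and for homozygous against hemizygous 80.6% and 97.8%. With such shares most signs agree whether or not a member follows its own parent. Across the 101 members, r between both fold changes was 0.07, 0.05 and 0.07 and rho was 0.08, 0.12 and 0.27 in the same order, in libraries that members and parents share. Among the 52 members of at least 5 CPM, rho was 0.13, 0.04 and 0.38. For members inside a gene with a row, the spanning genes had medians of 0.03, -0.04 and -0.04 in the 3 comparisons (n = 34 genes), with 13 of 34 above 0 for homozygous against wild-type. The 37 members inside a protein-coding gene had a median of 0.13 in that comparison and the 53 inside no gene 0.14.

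Abrupt differences between replicates occurred in both directions for copies of RPS6, the small-subunit protein that growth signals phosphorylate. The 2 libraries of a genotype differed at least 4-fold in 2 of 103 members (1.94%, against 0.920% of all rows), RPS6P12 and RPS6P8. RPS6P12 had 6.86 and 0.716 CPM in wild-type, 5.22 and 2.54 CPM in hemizygous, and 2.56 and 4.16 CPM in homozygous cells. Its wild-type libraries differed 9.43-fold, and no genotype stood apart. RPS6 stayed between 1027 and 1347 CPM. Both members are under 5 CPM, where 2 of 51 members (3.92%) and 2.48% of rows had such a gap.

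RPS6P8 had 0.386 and 1.79 CPM in wild-type, 0.287 and 0.437 CPM in hemizygous, and 0.881 and 0.985 CPM in homozygous cells, a 4.56-fold gap in wild-type. It lies inside OOEP, an oocyte-expressed gene, whose row had 1.77 and 7.52 CPM, 1.43 and 3.38 CPM, and 4.23 and 6.10 CPM. Wild-type replicate 2 is the highest library and hemizygous replicate 1 the lowest for both. The log2 fold changes for hemizygous against wild-type were -1.54 for RPS6P8 (SE 0.71) and -0.93 for OOEP. RPL39P3, in the span of the same gene, had 13.4 to 17.6 CPM and a fold change of -0.05 in that comparison.

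**Figure D5:**
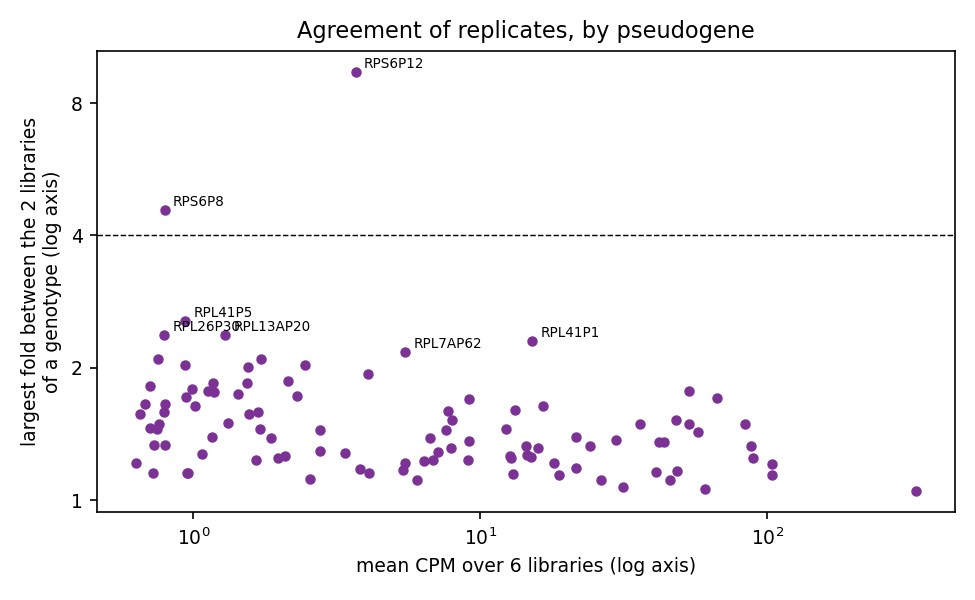
Largest fold between the 2 libraries of a genotype (log axis) for each of the 103 pseudogenes against its mean CPM (log axis), with a dashed line at 4-fold. RPS6P12 (9.43-fold) and RPS6P8 (4.56-fold) lie above the line, and RPS2P5, the most abundant member, has the smallest gap.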

How the data were processed

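The authors deposited a table of whole-number read counts per gene for the 6 libraries, with no normalization. The build was hg38, per the submitters' processing notes. Libraries were assigned to genotypes by their titles. RefSeq GRCh38.p14, the same build, gave classes, positions and starts. Members and gene lists were chosen with earlier results of these data known. Counts were scaled with TMM, filtered with filterByExpr (all 16199 rows kept) and fitted in edgeR 4.0.16 (R 4.3.3; quasi-likelihood F test) with 1 mean per genotype, adjusted by Benjamini-Hochberg over all rows. Ratios to the parent had 0.5 count added. Single values were compared by exact permutation (scipy 1.17.1). Alternatives were other scalings and filters, limma-voom 3.58.1, DESeq2 1.42.0, a replicate block and each library left out. The other filters also kept all 16199 rows and repeated the main fit, so they are no separate check. The pipeline was tested on simulated data, with 200 of 16199 rows changed in each comparison. edgeR called 36 to 41% of the rows changed by 1 on the log2 scale and 90 to 93% of those changed by 2. It also called 13 to 20 unchanged rows. The changed rows were drawn from all rows (median 19.1 CPM), and members are lower (median 5.36 CPM). What share would be called among members was not tested. Libraries were simulated independently, without variation shared by replicate number. Smaller changes, such as the medians given here, were not simulated. Named were the 12 most abundant members, up to 5 per comparison and direction with the smallest p among those without overlap, up to 5 with the largest ratio to the parent, those with a 4-fold gap between replicates, and parents. Other names were chosen after their values were seen. The labels do not say what a replicate number marks. IgG pull-downs were not analysed here.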

Additional observations from a re-analysis of the deposited data

How the results depend on the processing

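Over 3 comparisons, the count of called members was 0 under every scaling, filter, tool and block tried. Hardly any row was called under these settings either. Of all 16199 rows, DESeq2 called 7, 10 and 10, the replicate block 1, 0 and 1, and the other scalings, filters and limma-voom 0. A count of 0 among 103 members is thus near the background. Deviations of same-numbered libraries of 2 genotypes correlated across all rows (0.741, 0.357 and 0.476) and less across the 103 members (0.369, 0.0074 and 0.00069). Such a correlation leaves out a shift that all members share, and the median member was lower in replicate 1 in every genotype. As the labels do not give the meaning of the 2 numbers, same-numbered libraries were not taken as pairs. The SEs and p-values of the main fit therefore include any variation that follows replicate number. With the replicate block, 0 members were called, the smallest adjusted p among them was 0.337 for homozygous against wild-type (0.337 to 1.00 over the settings), and the medians were -0.02, 0.13 and 0.15. Members with an unadjusted p under 0.05 then numbered 2 (3.8% of all rows), 5 (12%) and 8 (8.2%) in the 3 comparisons. Leaving out a library moved the median log2 fold change to between -0.16 (without hemizygous replicate 2) and 0.12 (without hemizygous replicate 1) for hemizygous against wild-type, to between 0.021 (without homozygous replicate 2) and 0.19 (without homozygous replicate 1) for homozygous against wild-type, and to between 0.0087 and 0.31 (without hemizygous replicates 1 and 2) for homozygous against hemizygous. The cause was not tested. Medians within each replicate number, and the ratio of summed counts without families whose parent row was under 20 CPM (-0.05 for homozygous against wild-type), were chosen after seeing the data. The 26 fold changes of members named for the smallest p kept their sign in the 390 recomputed values. Those values include the other filters, which repeat the main fit. These members were chosen for libraries without overlap, so leaving out a library could hardly reverse a sign, and the agreement is no separate support. Members named for other reasons were not part of this count. Depth was lowest for the 21 members under 1 CPM, and what size of change could be called in those rows was not tested.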

Other observations

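Among the other translation genes with terminal oligopyrimidine mRNAs, 13 of 18 with a row were above 0 for homozygous against wild-type. Their median was 0.07, beside 0.13 for the pseudogenes and 0.16 for their parents. Of the 18, 0 passed edgeR's test (0.0% of all rows) and 2 had an unadjusted p under 0.05 (2.69% of all rows). EEF1B2, a subunit of the translation elongation factor that recharges EEF1A, had 4.69 and 65.0 CPM in wild-type, 3.99 and 2.56 CPM in hemizygous, and 2.25 and 2.31 CPM in homozygous cells. The size of the difference rested on wild-type replicate 2, and wild-type replicate 1 lay only a little above the highest mutant library. Its partner EEF1D had 7.50 and 11.1 CPM, 6.96 and 3.70 CPM, and 3.00 and 3.20 CPM in that order (log2 fold change -1.58, SE 0.36, for homozygous against wild-type).

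Of the 7 ribosomal protein paralogs with a row, functional relatives that are not pseudogenes, RPL22L1 had 86.9 and 65.0 CPM in wild-type, 62.8 and 45.8 CPM in hemizygous, and 37.4 and 44.4 CPM in homozygous cells. Both mutant pairs lay below the wild-type pair, by -0.48 (SE 0.22) and -0.89 (SE 0.22) on the log2 scale. Of the 7 paralogs, 0 passed edgeR's test in any comparison (0.0% of all rows). For homozygous against wild-type, 1 of 7 had an unadjusted p under 0.05 (2.69% of all rows). EEF1B2, EEF1D and RPL22L1 were picked after their values were seen.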
